A study of Homo sapiens with 16 samples.

Results

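The nuclear subunit genes of respiratory complexes II to V were described in the human hepatoma line HepG2 after transfection with siRNA against HCF-1 or with a control siRNA. Members were the protein-coding rows of the deposited table whose symbols name succinate dehydrogenase subunits (SDHA to SDHD), complex III subunits (UQCR symbols and CYC1), cytochrome c oxidase subunits (symbols of COX subunits 4 to 8) or ATP synthase subunits (ATP5 symbols). The rule found 53 members among 56969 genes. Of these, 45 were subunit genes, 4 of complex II, 9 of complex III, 16 of complex IV and 16 of complex V, and 8 were genes that share a symbol stem but were not counted as subunits. Each group had 8 libraries, called biological replicates in the labels. Cells received their siRNA in 2 rounds of transfection, 2 days apart, and RNA was taken 2 days after the second round. HCF-1 is a chromatin-bound cofactor encoded by HCFC1. The sources used here do not give the siRNA sequences, and siRNA lowers a transcript without removing it.

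The respiratory chain, in the inner mitochondrial membrane, passes electrons to oxygen and builds a proton gradient across that membrane. Complex II oxidises succinate, complex III passes electrons from ubiquinol to cytochrome c, complex IV reduces oxygen, and complex V uses the resulting proton gradient to make ATP. Complex II is built from nuclear genes alone, whereas complexes III, IV and V also hold subunits encoded in mitochondrial DNA. The mitochondrially encoded subunits (MT-CYB, MT-CO1, MT-CO2, MT-CO3, MT-ATP6 and MT-ATP8) were sought by name and not found in the deposited table, so they were not analysed.

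Control libraries held 21030830 to 32820459 recovered reads each, and HCF-1 siRNA libraries 25098840 to 43186890. HCFC1, the targeted gene, went from 5631 ± 670.5 to 3682 ± 339.6 normalized counts (mean and SD, n = 8 and 8), and its groups did not overlap (log2 fold change -0.61 ± 0.071 SE; limma adjusted p = 4.52e-06; two-sided exact permutation p = 1.55e-04, the smallest that 8 against 8 libraries can give). The 8 hepatocyte markers made up 2.58% to 2.83% of the normalized counts in control libraries and 3.03% to 3.57% in HCF-1 siRNA libraries. Of them 7 rose by limma and 6 by edgeR, where limma called 18.2% of all genes tested higher. Among the 7 were TTR (0.63 ± 0.064), AFP (0.58 ± 0.068) and ALB (0.52 ± 0.060), and APOA1 (0.13 ± 0.063) was not called. The 8 markers of blood, endothelial and fibroblast cells that were found summed to 0.0147% to 0.0199% in control and 0.0136% to 0.0170% in HCF-1 siRNA libraries. Among them PTPRC, which defines blood cells, was at 0 to 3.6 normalized counts, COL1A1 (-0.56 ± 0.15) and LAPTM5 (-0.32 ± 0.085) fell, and PDGFRB (0.36 ± 0.16), CDH5 (0.30 ± 0.14), VWF (0.20 ± 0.33) and CD74 (-0.15 ± 0.064) were not called. The median over the 6 tested was 0.025, and DESeq2 called 1 of them higher. The part of these shifts in the subunit values was not tested, and in bulk RNA fewer cells of a kind and less RNA per cell cannot be told apart.

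Fold changes below are HCF-1 siRNA over control siRNA on the log2(normalized count + 1) scale with their standard errors, from limma over 8 and 8 libraries. Adjusted p-values are Benjamini-Hochberg over all 16081 genes with a mean of at least 10, and a gene was called at an adjusted p under 0.05. The filter passed 43 members, 38 of them subunit genes. Of these 38, 19 fell, 2 rose and 17 were not called, with a median log2 fold change of -0.14. Of all genes tested, 18.3% were called lower and 18.2% higher (36.6% in either direction), with a median of 0.0064. The changes were small: the lowest 3 subunit values, in COX8A, COX6B1 and COX5A, lay between -0.40 and -0.35. The groups did not overlap for 7 subunit genes, all of them lower, where 5.23% of all genes tested were lower without overlap and 4.59% higher. Summed, the subunit genes were 0.569% to 0.623% of the normalized counts in control libraries and 0.535% to 0.565% in HCF-1 siRNA libraries, ranges that did not overlap. The totals behind these shares differed between the groups, at 2.788e+07 to 2.824e+07 normalized counts in control and 2.843e+07 to 2.885e+07 in HCF-1 siRNA libraries. Before division by these totals, the summed counts of the 2 groups overlapped.

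**Figure D1:**
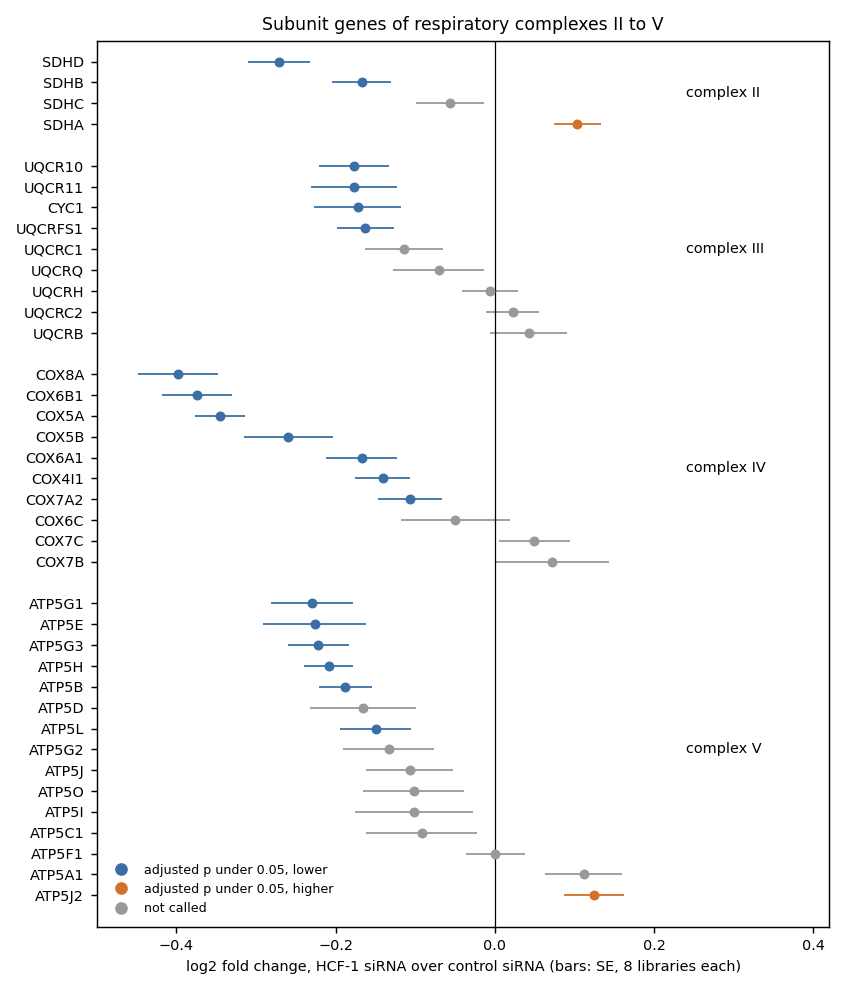
Log2 fold change (x axis, HCF-1 siRNA over control siRNA, points with SE bars, 8 libraries a group) of the 38 subunit genes tested (y axis), by complex. Blue marks the 19 called lower, orange the 2 called higher (SDHA and ATP5J2) and grey the 17 not called, and the lowest values are those of COX8A, COX6B1 and COX5A of complex IV.

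The share called lower depended on the genes it was set beside. Beside the 19 of 38 subunit genes, it was 25.4% of the 4539 protein-coding genes whose mean lay in the range of the subunit genes, and 44.2% of the 303 protein-coding genes with a mean above 1000 and a reference transcript shorter than 1000 bases. The median log2 fold change of those 303 short, abundant genes was -0.11. The 7 of 38 subunit genes that were lower without overlap stand beside 390 of the 4539 genes and 61 of the 303. Subunit genes are themselves in these sets, and the differences in share were not tested. Of the 48 complex I genes tested, found by NDUF symbols, 22 fell and 26 were not called, with a median of -0.17.

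The proximal promoters of 5 of the 7 genes without overlap are shown so that their letters can be compared. In the other 2, SDHD and ATP5H, another RefSeq gene lies in the window. Each run is the 250 bases before the RefSeq start in build GRCh38.p14, written 5′ to 3′ on the strand of the gene. Capitals mark matches, on either strand, to the letters of an ETS-type motif (CCGGAAG, the kind bound by GABPA), NRF1, YY1 (AAGATGGCG), CREB (TGACGTCA, the same on both strands) or THAP11/ZNF143, the last a pair of factors known to work with HCF-1. A match that runs past the start is in capitals only up to it.
SDHB, chr1:17054033-17054282, minus strand: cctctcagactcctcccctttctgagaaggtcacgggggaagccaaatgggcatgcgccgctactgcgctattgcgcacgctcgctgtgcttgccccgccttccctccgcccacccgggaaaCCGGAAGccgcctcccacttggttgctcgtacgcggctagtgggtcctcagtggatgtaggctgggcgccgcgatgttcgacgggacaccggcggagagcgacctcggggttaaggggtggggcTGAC
UQCR10, chr22:29767119-29767368, plus strand: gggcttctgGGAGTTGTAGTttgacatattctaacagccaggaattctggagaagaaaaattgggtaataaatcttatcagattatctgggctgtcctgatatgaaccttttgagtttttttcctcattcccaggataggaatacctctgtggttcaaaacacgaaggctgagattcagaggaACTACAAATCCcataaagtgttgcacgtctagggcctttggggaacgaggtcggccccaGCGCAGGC
COX5A, chr15:74938074-74938323, minus strand: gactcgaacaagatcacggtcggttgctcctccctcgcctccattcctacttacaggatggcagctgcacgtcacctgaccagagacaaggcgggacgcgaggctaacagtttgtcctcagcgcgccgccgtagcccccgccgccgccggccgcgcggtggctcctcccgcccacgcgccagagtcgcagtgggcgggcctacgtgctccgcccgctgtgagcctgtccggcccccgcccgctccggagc
COX6B1, chr19:35648073-35648322, plus strand: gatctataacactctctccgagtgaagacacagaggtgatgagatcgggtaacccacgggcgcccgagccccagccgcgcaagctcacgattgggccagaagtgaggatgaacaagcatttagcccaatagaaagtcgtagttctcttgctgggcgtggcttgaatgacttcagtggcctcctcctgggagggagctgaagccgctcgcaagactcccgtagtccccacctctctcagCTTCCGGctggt
COX8A, chr11:63974370-63974619, plus strand: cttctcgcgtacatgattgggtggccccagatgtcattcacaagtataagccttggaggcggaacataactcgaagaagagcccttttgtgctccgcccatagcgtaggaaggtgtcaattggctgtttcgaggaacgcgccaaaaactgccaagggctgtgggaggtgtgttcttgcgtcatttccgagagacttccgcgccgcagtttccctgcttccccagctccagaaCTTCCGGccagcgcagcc
COX6B1 and COX8A hold the ETS-type letters on the opposite strand close to the start, and SDHB holds them farther upstream with CREB letters across the start. UQCR10 holds the THAP11/ZNF143 letters at 2 places and NRF1 letters across the start, and COX5A holds none of the 5 motifs.

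Of the 38 subunit genes tested, 30 had a promoter in the RefSeq table, and 1 promoter was taken per gene. Bases after the start were found in a transcript for 29 of the 30, and not for ATP5G2. Windows that hold another RefSeq gene, left out of the printed runs, were kept in the counts below. In windows of 300 bases, 250 before and 50 after the start, the ETS-type letters were found in 14 of 30 subunit promoters (46.7%), against 10.2% of 34796 distinct promoters of the same length. They were in 10 of the 16 subunit promoters whose gene fell and in 4 of the other 14. The NRF1 letters were in 9 of 30 (30.0%, against 5.75%), 4 of the 16 and 5 of the 14, and 4 copies stood before SDHA, a gene that rose. The YY1, CREB and THAP11/ZNF143 letters were each in 3 of 30 (10.0%), against 1.76%, 1.84% and 0.991%. The THAP11/ZNF143 letters stood before UQCR10, which fell, and before COX7C and ATP5O, which were not called. The 34796 promoters were not matched to those of the subunit genes for expression or GC content. A match describes the sequence, not binding, and the shares were not tested.

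Complex IV had the lowest median of the 4 complexes, -0.15, although with the trend on GC content removed that of complex II was lower (-0.14, against -0.13 for complex IV). The complex II value rests in part on SDHC, whose GC content is doubtful. Of the 16 complex IV genes 10 were tested, and 7 fell and 3 were not called. COX8A, the common form of the small subunit 8, ran from 2604 to 3156 (median 2988) normalized counts in control and from 1969.9 to 2439 (median 2259.9) in HCF-1 siRNA libraries. All 8 HCF-1 siRNA libraries lay below every control library, and the log2 fold change was -0.40 ± 0.050 (adjusted p = 1.01e-05). COX6B1, a subunit that faces the intermembrane space, ran from 3131 to 3682 (median 3264) in control and from 2363 to 2837 (median 2593) in HCF-1 siRNA libraries. Its groups were also apart (-0.37 ± 0.044, adjusted p = 5.17e-06). COX5A, which sits on the matrix side, ran from 3932 to 4263 (median 4084) in control and from 3103 to 3529.7 (median 3207) in HCF-1 siRNA libraries. Its groups were apart, its HCF-1 siRNA mean was 78.7% of the control mean, and it had the smallest adjusted p of the members (-0.35 ± 0.032, adjusted p = 3.81e-07).

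The other 4 complex IV subunits that fell had overlapping groups. COX5B, which binds zinc, ran from 3735 to 4965 (median 4596) normalized counts in control and from 3437 to 4255 (median 3797) in HCF-1 siRNA libraries. Of the latter, 3 lay below every control library (-0.26 ± 0.056, adjusted p = 0.00156). COX6A1, the liver form of subunit 6A, ran from 3792 to 4769 (median 4488) and from 3612 to 4185 (median 3934), with 1 HCF-1 siRNA library below the control range (-0.17 ± 0.044, adjusted p = 0.00672). COX4I1, the common form of subunit 4, ran from 7915 to 9182 (median 8713) and from 7347 to 8293 (median 7728), with 6 of 8 HCF-1 siRNA libraries below the control range (-0.14 ± 0.035, adjusted p = 0.00403). COX7A2, the liver form of subunit 7A, ran from 1892 to 2144 (median 2014) and from 1757 to 1948 (median 1861) and passed narrowly (-0.11 ± 0.040, adjusted p = 0.0456). It lost its call in 12 of 27 alternatives, namely with no filter, with the replicate number as a block, and when any of control siRNA replicates 2, 4, 5, 6 and 8 and of HCF-1 siRNA replicates 1, 2, 3, 6 and 8 was left out (range of adjusted p in all alternatives, 0.0134 to 0.169).

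COX6C (-0.050 ± 0.068), COX7C (0.050 ± 0.045) and COX7B (0.071 ± 0.072), small subunits that span the membrane, were not called. COX7C ran from 2463 to 3036 (median 2650.2) in control and from 2622 to 2962 (median 2817) in HCF-1 siRNA libraries, inside the control range. Cytochrome c oxidase also has subunit forms made mainly in muscle, lung or testis. These, COX4I2, COX6A2, COX6B2, COX7A1, COX7B2 and COX8C, had means under 10 and were not tested. Their highest value in any library was 22.6 normalized counts, for COX7A1 in HCF-1 siRNA replicate 4. The liver or common forms COX4I1, COX6A1, COX6B1, COX7A2, COX7B and COX8A all had means above 1000 in both groups.

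**Figure D2:**
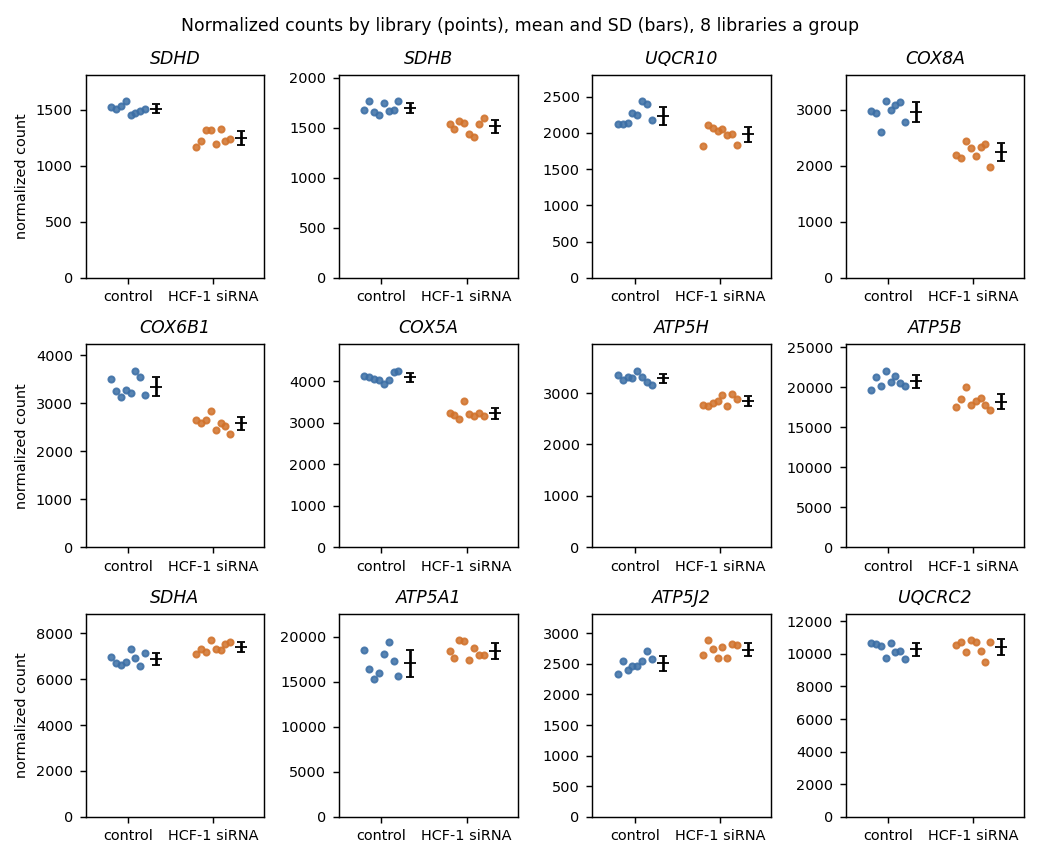
Normalized counts by library (y axis from 0) for 12 subunit genes, with 8 control siRNA (blue) and 8 HCF-1 siRNA (orange) points and black bars for mean and SD. The 7 genes SDHD, SDHB, UQCR10, COX8A, COX6B1, COX5A and ATP5H have groups that do not overlap, and the other 5, from ATP5B to UQCRC2, overlap.

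The calls within complex II went both ways, with 2 genes lower, 1 higher and 1 not called. SDHD, which helps anchor the enzyme in the membrane, ran from 1452 to 1578 (median 1506) normalized counts in control and from 1172 to 1327 (median 1229) in HCF-1 siRNA libraries. The groups were apart (-0.27 ± 0.039, adjusted p = 4.07e-05). SDHB, the iron-sulfur subunit, ran from 1631 to 1767.5 (median 1678) and from 1409 to 1595 (median 1534) and also fell without overlap (-0.17 ± 0.037, adjusted p = 0.00188). SDHA, the flavoprotein that oxidises succinate, ran from 6582 to 7324 (median 6836) in control and from 7119 to 7711 (median 7325) in HCF-1 siRNA libraries. It rose, with 4 HCF-1 siRNA libraries above every control library (0.10 ± 0.030, adjusted p = 0.0113), and its call was lost with total-count scaling (0.075, adjusted p = 0.0574; 0.00108 to 0.0574 over the alternatives). SDHA has near-identical pseudogene copies, so its count is uncertain. No gene was checked for reads shared with such copies, so counts of other subunit genes may be uncertain too. SDHC, the other anchor, ran from 3799.7 to 4449.5 (median 4044) and from 3672 to 4238 (median 3942) and was not called (-0.056 ± 0.043). With each library's trend on GC content removed, an alternative described below, SDHC was called lower (-0.12, adjusted p = 0.0296; 0.0296 to 0.5258 over the alternatives). The GC content used for SDHC is doubtful, since its reference transcript, at 13566 bases, was by far the longest of the 38.

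In complex III, 4 of 9 genes fell and 5 were not called, with a median of -0.11. UQCR10, a small subunit near cytochrome c1, ran from 2119.9 to 2441 (median 2210.4) normalized counts in control and from 1818 to 2104 (median 2002.5) in HCF-1 siRNA libraries. Its groups did not overlap (-0.18 ± 0.044, adjusted p = 0.00419). UQCR11, another small subunit, ran from 1679 to 2174 (median 2085.5) and from 1647 to 1937 (median 1842) (-0.18 ± 0.054, adjusted p = 0.0158). CYC1, the cytochrome c1 that hands electrons to cytochrome c, ran from 3377 to 3993 (median 3681) and from 2913 to 3809 (median 3264), with 5 HCF-1 siRNA libraries below the control range (-0.17 ± 0.055, adjusted p = 0.0195). Its call was lost with the trend on GC content removed (-0.064, adjusted p = 0.126; 0.00472 to 0.126 over the alternatives). UQCRFS1, the Rieske iron-sulfur protein that takes electrons from ubiquinol, ran from 2459.9 to 2834 (median 2702.5) and from 2273.5 to 2519.6 (median 2394) (-0.16 ± 0.035, adjusted p = 0.00165).

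Neither of the 2 core proteins of complex III, large subunits on the matrix side, was called. UQCRC2 ran from 9694 to 10680.5 (median 10341) in control and from 9471 to 10846 (median 10640.4) in HCF-1 siRNA libraries (0.022 ± 0.034). UQCRC1 ran from 6419 to 7593 (median 6637) and from 5771 to 7173 (median 6276) (-0.11 ± 0.049, adjusted p = 0.0781). UQCRC1 was called lower with total-count scaling (-0.14, adjusted p = 0.0247) and without HCF-1 siRNA replicate 3 (-0.14, adjusted p = 0.0249), with 0.0247 to 0.571 over the alternatives. UQCRH, the hinge protein near cytochrome c1, ran from 2193 to 2482 (median 2327) and from 2201 to 2447 (median 2296), a difference of -0.0065 ± 0.035. UQCRQ (-0.071 ± 0.057) and UQCRB (0.042 ± 0.048) were not called either, and whether these subunits differed from those that fell was not tested.

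Complex V had 6 genes that fell, 1 that rose and 8 not called among the 15 tested, with a median of -0.13. In its F1 part, where ATP is made, ATP5B, the catalytic beta subunit, ran from 19626 to 22079 (median 20568) normalized counts in control and from 17113 to 20055 (median 18028) in HCF-1 siRNA libraries. In 7 of 8 HCF-1 siRNA libraries it was below every control library (-0.19 ± 0.033, adjusted p = 2.77e-04). ATP5A1, the alpha subunit that alternates with beta, ran from 15256 to 19468 (median 16857) and from 17379 to 19628 (median 18200.5) and was not called (0.11 ± 0.048, adjusted p = 0.0795). It was called higher without control siRNA replicate 1 (0.13, adjusted p = 0.0498) or 6 (0.14, adjusted p = 0.0212), with 0.0212 to 0.181 over the alternatives. The ratio of ATP5B to ATP5A1 normalized counts, chosen after the values were seen and given with no test, was 1.06 to 1.38 (median 1.24) in control and 0.909 to 1.05 (median 0.994) in HCF-1 siRNA libraries. Those ranges did not overlap.

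Of the F1 subunits that form the rotating stalk, ATP5E (epsilon) ran from 5241 to 7077 (median 5981) in control and from 4687 to 6130.1 (median 4994) in HCF-1 siRNA libraries and fell (-0.23 ± 0.065, adjusted p = 0.0111). A readthrough gene, SLMO2-ATP5E, overlaps the promoter window of ATP5E in RefSeq, so the count of ATP5E is uncertain. Its reference transcript was long (3665 bases), so the GC content used for ATP5E is doubtful too. ATP5D (delta) ran from 2314 to 2664 (median 2551.5) and from 1907 to 2710.2 (median 2218) and was not called (-0.17 ± 0.067, adjusted p = 0.0602). ATP5D was called lower with upper-quartile or total-count scaling and when control siRNA replicate 3 or one of HCF-1 siRNA replicates 3, 4 and 6 was left out (range of adjusted p in all alternatives, 0.0140 to 0.981). With the trend on GC content removed its fold change was -0.0017. ATP5C1 (gamma) was not called (-0.092 ± 0.070).

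ATP5G1, ATP5G2 and ATP5G3 encode the same mature subunit c, which forms the proton-carrying ring, with different targeting peptides. ATP5G1 ran from 2488 to 3262 (median 2874) in control and from 2237 to 2634 (median 2408) in HCF-1 siRNA libraries and fell (-0.23 ± 0.052, adjusted p = 0.00210). ATP5G3 ran from 6612 to 7856 (median 7325) and from 5848 to 6683.5 (median 6269.6), with 7 of 8 HCF-1 siRNA libraries below the control range (-0.22 ± 0.038, adjusted p = 2.12e-04). ATP5G2 ran from 3507 to 4471 (median 3996) and from 3216 to 4080.3 (median 3572) and was not called (-0.13 ± 0.057, adjusted p = 0.0771). It was called lower with total-count scaling and when control siRNA replicate 3 or one of HCF-1 siRNA replicates 3 and 6 was left out (range of adjusted p in all alternatives, 0.0300 to 0.274). A difference between the 3 genes was not tested.

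In the peripheral stalk, which holds the head still, 1 of 4 genes fell. ATP5H, subunit d, ran from 3155 to 3438 (median 3300.0) in control and from 2748 to 2985.5 (median 2827) in HCF-1 siRNA libraries, without overlap (-0.21 ± 0.031, adjusted p = 4.95e-05). ATP5F1, subunit b, ran from 4249.6 to 4555 (median 4314.5) and from 4025 to 4720.0 (median 4398), on both sides of the control range, a difference of 0.00067 ± 0.037 with no call. ATP5J, coupling factor 6, and ATP5O, which links head and stalk, were not called (-0.11 ± 0.055 and -0.10 ± 0.063). ATP5J was called lower without control siRNA replicate 6 (-0.14, adjusted p = 0.0264; 0.0264 to 0.290 over the alternatives), and ATP5O without control siRNA replicate 3 (-0.15, adjusted p = 0.0320; 0.0320 to 0.371).

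Of the small membrane subunits of complex V, ATP5L (subunit g) ran from 2581 to 3039 (median 2746) in control and from 2306 to 2794.5 (median 2458) in HCF-1 siRNA libraries and fell (-0.15 ± 0.045, adjusted p = 0.0137). ATP5I (subunit e) was not called (-0.10 ± 0.074). ATP5J2 (subunit f) ran from 2336 to 2707 (median 2503) and from 2597 to 2888 (median 2754) and rose, with 5 HCF-1 siRNA libraries above every control library (0.12 ± 0.037, adjusted p = 0.0144). Its call was lost with no filter on low values (adjusted p = 0.0680; 0.00197 to 0.0680 over the alternatives). The readthrough gene ATP5J2-PTCD1 shares its exons, ran from 349.9 to 463 (median 403) and from 314 to 479 (median 419), and was not called (0.011 ± 0.095), so the split of reads between these genes is uncertain.

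Of the other genes that share a symbol stem, ATP5S, known as factor B, ran from 315 to 371 (median 341) in control and from 269 to 326 (median 293) in HCF-1 siRNA libraries and fell (-0.20 ± 0.059, adjusted p = 0.0123). The call of ATP5S was lost with no filter (adjusted p = 0.0792; 0.00333 to 0.0792 over the alternatives). ATP5SL (-0.034 ± 0.055) and COX7A2L (-0.088 ± 0.038), the latter a factor of respiratory supercomplexes, were not called. COX7A2L was called lower with upper-quartile or total-count scaling, with the trend on GC content removed and without control siRNA replicate 8 (adjusted p 0.00260 to 0.232 over the alternatives). A second gene under the symbol UQCR11, ENSG00000267059, ran from 213 to 490.3 (median 282) and from 190.1 to 436 (median 328) and was not called (-0.070 ± 0.19). A second gene under SDHD (ENSG00000255292), COX6A1P2, ATP5EP2 and the subunit-like ATP5L2 had means under 10 and were not tested.

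Summed over its subunit genes, complex IV had the lowest ratio of group means. Its sum was 35262 ± 1338 normalized counts in control and 30841 ± 862 in HCF-1 siRNA libraries, 87.5% of the control mean. Every HCF-1 siRNA library (29291 to 32136) lay below the control libraries, which spanned 32626 to 36857. The sum of complex V was at 93.6% of the control mean and that of complex III at 95.3%, with overlapping ranges in each. For complex II, whose most abundant gene is SDHA, the ratio was 99.4%. These sums weight abundant genes more, and the differences between complexes were not tested.

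**Figure D3:**
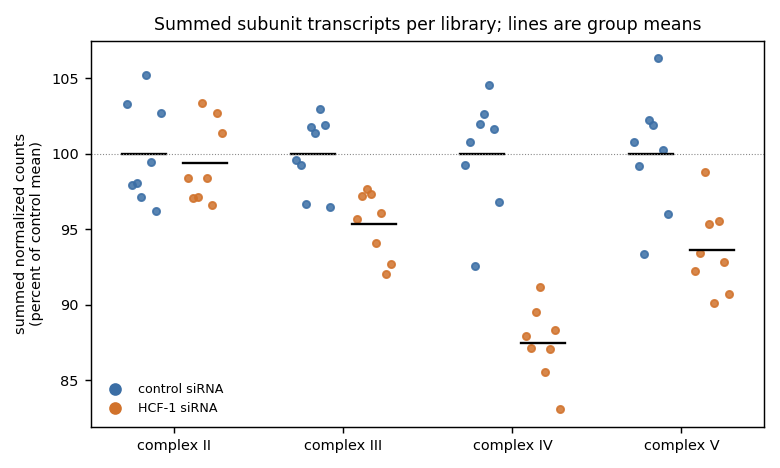
Summed normalized counts of the subunit genes of each complex per library, as a percentage of the control mean (y axis, not from 0), for 8 control siRNA (blue) and 8 HCF-1 siRNA (orange) libraries, with lines at the group means. The HCF-1 siRNA mean is at 99.4% for complex II, 95.3% for III, 87.5% for IV and 93.6% for V.

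The weight that libraries gave to GC-rich transcripts moved with the groups. The slope of log2 deviation on transcript GC content, per 10 percentage points, was -0.047 to 0.15 (median 0.034) in control libraries and -0.16 to 0.077 (median -0.054) in HCF-1 siRNA libraries (two-sided exact permutation p = 0.0249). Within groups, the leading component of the 38 subunit genes held 44.2% of their variance, and its correlation with that slope over 16 libraries was 0.947 in size, a description of measures that share the same libraries. UQCRC1, CYC1, ATP5G3 and ATP5G2 had within-group correlations with the slope of 0.856, 0.861, 0.882 and 0.912. Among the 7 genes without overlap the correlation was 0.827 for COX8A, 0.6605 for COX6B1, 0.538 for UQCR10, 0.377 for SDHD, -0.123 for COX5A, -0.245 for ATP5H and -0.327 for SDHB. It was lowest for COX6C, at -0.842. Across the 38 genes, which are not independent replicates, the rank correlation of fold change with transcript GC content was -0.307, and over 15541 genes it was -0.236.

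With the trend on GC content removed from each library, 19 subunit genes were called lower and 2 higher, against 18.4% of all genes lower and 19.5% higher, and the median over subunit genes was -0.12. That procedure also removes any siRNA effect that follows GC content. All 7 genes without overlap were called lower in it, among them COX5A (-0.36), COX6B1 (-0.31), COX8A (-0.31) and SDHD (-0.35). The median of complex III went from -0.11 to -0.052, which is the value of UQCRB, a gene whose GC content is doubtful. In the same complex CYC1 lost its call and UQCRC1 moved to -0.023. That of complex II went from -0.11 to -0.14, a median that includes the doubtful SDHC value.

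**Figure D4:**
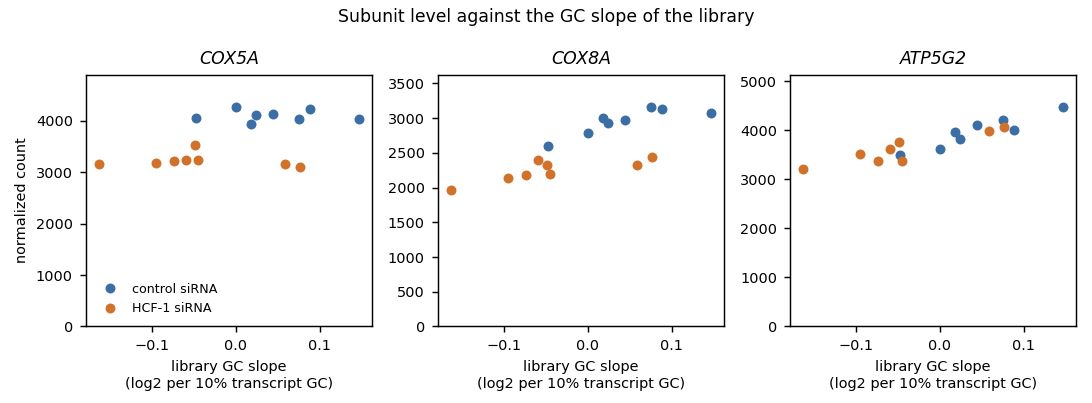
Normalized counts (y axis from 0) of COX5A, COX8A and ATP5G2 against the GC slope of each library (x axis, log2 per 10% transcript GC), for 8 control siRNA (blue) and 8 HCF-1 siRNA (orange) libraries. The groups of COX5A and COX8A do not overlap in height and those of ATP5G2 do, and within groups the correlation with the slope is 0.912 for ATP5G2, 0.827 for COX8A and -0.123 for COX5A.

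Factors that assemble these complexes were described from lists of known genes, whose counts stand beside the 18.3% of all genes tested that were called lower and the 18.2% called higher. For complex II, 2 of 4 fell, ACN9 (now SDHAF3; -0.41 ± 0.093, adjusted p = 0.00218) and SDHAF1 (-0.29 ± 0.082, adjusted p = 0.00978), both of which serve the iron-sulfur subunit SDHB. For complex III, 2 of 6 fell: BCS1L, which inserts the Rieske protein (-0.27 ± 0.057, adjusted p = 0.00119), and UQCC1, which acts early with cytochrome b (-0.21 ± 0.043, adjusted p = 0.00123). For complex IV, 11 of 26 fell and 3 rose, with a median of -0.11. COA3, which stabilises the newly made catalytic core, ran from 1661 to 1757 (median 1705) in control and from 1184 to 1484 (median 1314) in HCF-1 siRNA libraries (-0.37 ± 0.044, adjusted p = 5.93e-06). COX19, a factor linked to copper delivery, ran from 349 to 546 (median 448) and from 565 to 811 (median 723) (0.70 ± 0.11, adjusted p = 8.78e-05). LRPPRC, which stabilises mitochondrial mRNAs, ran from 13837 to 17229.8 (median 16140.0) and from 18129 to 21849.5 (median 21414) (0.38 ± 0.048, adjusted p = 1.08e-05). The groups of COA3, COX19 and LRPPRC did not overlap, COA3 being lower and COX19 and LRPPRC higher. In the whole list of 26, 4 genes were lower without overlap and 2 higher, beside 5.23% and 4.59% of all genes tested. For complex V, 1 of 6 fell, ATPAF1, a chaperone of the beta subunit (-0.16 ± 0.042, adjusted p = 0.00615), a share of 16.7% that is near that of all genes.

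Of 12 regulators of respiratory gene transcription 5 rose by limma, against 18.2% of all genes tested. PPARGC1A, the coactivator PGC-1alpha, ran from 294 to 756 (median 506) normalized counts in control and from 912 to 1739.8 (median 1199) in HCF-1 siRNA libraries (1.32 ± 0.18, adjusted p = 2.13e-05). GABPB1, the partner of GABPA (0.45 ± 0.11, adjusted p = 0.00341), and PPRC1, a relative of PGC-1alpha (0.30 ± 0.058, adjusted p = 5.86e-04), also rose. Of the listed factors whose letters were sought in the promoters, YY1 rose (0.18 ± 0.052, adjusted p = 0.0106). GABPA (0.16 ± 0.076), CREB1 (0.22 ± 0.090) and NRF1 (0.017 ± 0.085) were not called. Of 12 general mitochondrial proteins 2 fell, TIMM23 of the import channel (-0.26 ± 0.047, adjusted p = 3.68e-04) and VDAC3 of the outer membrane (-0.25 ± 0.075, adjusted p = 0.0142), and the median was -0.016. That share of 16.7% is near the 18.3% of all genes called lower. Of the 3 subunit genes under other symbols (NDUFA4, USMG5 and C14orf2), limma called 0, with 1 lower at an unadjusted p under 0.05, and edgeR and DESeq2 called 1 lower each. Of 5 cytochrome c and supercomplex genes, limma called 0, with 2 lower at an unadjusted p under 0.05, and edgeR and DESeq2 called 1 lower each.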

How the data were processed

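RNA of HepG2 cells was sequenced in 8 control siRNA and 8 HCF-1 siRNA libraries after poly(A) selection with a stranded kit, per the labels' protocols. The authors deposited normalized counts, a signal equal to gene read counts divided by 1 size factor per library. The submitters' processing notes name cutadapt 1.4.2, STAR 2.4.1d, featureCounts 1.4.4, DESeq2 1.16.1 and hg19. The annotation release, strand setting and filters were not given in the sources used here. All values (100%) were whole multiples of 1 step per library within 0.001 reads, so whole reads could be recovered. They totalled 21030830 to 43186890 per library, and no 2 libraries of the same group agreed within sampling noise.

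Genes with a mean of at least 10 were fitted with limma 3.58.1 (R 4.3.3; trend and robust options) on log2(normalized count + 1), without replicate numbers as a block, and adjusted by Benjamini-Hochberg over all genes tested. Single values were compared by exact permutation over libraries. The fit was tested on simulated data. Of 27 alternatives, among them edgeR 4.0.16 and DESeq2 1.42.0 on the recovered reads, 2 (GC trend removed, reads thinned to the smallest library) were chosen after seeing the data. Transcript length and GC content came from GENCODE on another build, matched by Ensembl ID, and promoters from RefSeq. Named were all members and, of each further list, up to 3 called genes of largest change with a group mean of at least 50. Some further genes of these lists were named beside them. Members and lists were chosen with earlier results of these data known. The p-values weigh a difference between groups against the spread between these libraries, which the labels call biological replicates.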

Additional observations from a re-analysis of the deposited data

Results flagged for a closer look

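Among 124 groups of 8 libraries, from 62 of the named genes, 6 held a library whose gap to the nearest other library was large against the range of its group. Chance gives about 1 in 20. UQCR11 was at 1679.3 normalized counts in control siRNA replicate 3, where the other control libraries ran from 2001.3 to 2174.1. COX5A was at 3529.7 in HCF-1 siRNA replicate 4, above the other 7 at 3103.3 to 3236.9 and below every control library. ATP5E was at 6130.1 in HCF-1 siRNA replicate 3, against 4687.1 to 5346.0 in the others. PPARGC1A was at 1739.8 in HCF-1 siRNA replicate 6, against 911.6 to 1276.5. GABPB1 was at 857.4 in control siRNA replicate 1, against 628.6 to 718.7. VDAC3 was at 3858.6 in control siRNA replicate 3, against 3107.2 to 3425.6.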

How the results depend on the processing

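Over 27 alternatives, the members called lower numbered 18 to 24 (20 as reported; 19 to 23 with 1 library left out), and all 7 members without overlap were called lower in each. Of the 20 members called lower, 17 kept their call in each. The members called higher numbered 2, and 1 with no filter and 1 with total-count scaling (2 to 3 with 1 library left out). Complex II had 2 to 3 members lower, III 3 to 5, IV 6 to 7 and V 6 to 9. Among members not called, the sign turned for UQCRC2 (total-count scaling -0.0064, GC trend removed -0.010), and with the GC trend removed for UQCRB (-0.052), COX7C (-0.020), ATP5SL (0.031) and the second UQCR11 gene (ENSG00000267059; 0.055). It turned for ATP5F1 with upper-quartile scaling (-0.014), total-count scaling (-0.028), edgeR (-0.0057), GC trend removed (-0.055) and thinned reads (-0.0069), and for ATP5J2-PTCD1 with upper-quartile (-0.0035) and total-count scaling (-0.018). With 1 library left out, UQCRH ran from -0.018 to 0.0070, the second UQCR11 gene from -0.15 to 0.024, ATP5F1 from -0.016 to 0.017 and ATP5J2-PTCD1 from -0.023 to 0.064. The cause of these turns was not tested, and the GC content used for UQCRB is doubtful, since its reference transcript was long (5575 bases).

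Deviations of same-numbered libraries of the 2 groups correlated at -0.11 to 0.177 over 8 pairs, and 1 of 8 correlated best with its own number. The labels do not say whether a number marks a shared culture or day, and these correlations cannot decide it. With the replicate block, 5484 genes were called (5879 without it) and 19 members lower, COX7A2 losing its call (adjusted p = 0.0728).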
